A study of Homo sapiens with 9 samples.

Results

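The genes of the tumour necrosis factor (TNF) superfamily, receptors and ligands together, were followed in SKOV3 cells, a human ovarian carcinoma line in long use. Members were taken by name: every gene called TNFRSF or TNFSF with a number and an optional letter, and TNF, LTA, LTB, LTBR, CD40, CD27, CD70 and FASLG. This gave 37 of the 32378 genes in the table, 23 receptors and 14 ligands. FAS, NGFR, RELT and other relatives whose names do not follow this pattern were treated as pathway genes. Poly-A RNA was sequenced in 9 libraries, 3 in each of the groups control, Carbo and Carbo+COM33. The series' design text names carboplatin, a DNA-crosslinking platinum drug, which Carbo is taken to mean; COM33 has only this code name here. Doses, times and what the control cells received are not in the labels, and no group had COM33 by itself. All groups are the same line, grown in the same serum-containing medium, and the labels do not say whether the replicates are separate cultures, so p-values measure only the spread between these libraries, which may be technical.

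The ligands of this family are mostly trimeric membrane proteins, several of which are also released as soluble cytokines. Receptors with a death domain can assemble complexes around the adaptors FADD and TRADD that activate initiator caspases. Receptors without one bind TRAF adaptors and switch on NF-kB and MAP kinases, which death-domain receptors such as TNFRSF1A can do as well. Decoy receptors bind ligand without passing on a death signal. In epithelial tumour cells the family is best known for TRAIL-induced apoptosis and for TNF-driven NF-kB activity, while many other members act between lymphocytes and antigen-presenting cells.

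Total counts ran from 13851760 to 15533668 per library, which limits the precision of the low genes, and 25 members (14 receptors, 11 ligands) passed the filter on low counts and were tested. Members are compared with each other in FPKM, the deposited level scaled for gene length and library total; changes are given in CPM, which are counts relative to the library's TMM-adjusted total, with log2 fold changes. An adjusted p comes from the quasi-likelihood test of edgeR, adjusted by Benjamini and Hochberg's method over all 16450 genes tested, and a value under 0.05 makes a call. The epithelial markers PAX8, ERBB2 and KRT8 stood at 51.5, 227 and 58.2 FPKM on average in control, while WT1 and MUC16 were at 0.376 and 0.0457 FPKM. The summed level of the 8 epithelial markers was 436 to 480 FPKM in control, 420 to 479 in Carbo and 319 to 368 in Carbo+COM33. Of 14 blood and immune markers 12 were in the table, with summed levels of 0.796 to 1.16 FPKM in control, 0.457 to 0.983 in Carbo and 0.467 to 0.657 in Carbo+COM33; PTPRC, carried by all white blood cells, had 28 counts in all libraries together, and CD3E, of T cells, had 2. The 6 fibroblast markers summed to 1.04 to 4.21 FPKM in control, 1.09 to 4.24 in Carbo and 0.614 to 1.31 in Carbo+COM33; 3 were tested and edgeR and DESeq2 called 0, with 1 (COL1A1) at an unadjusted p under 0.05 in each Carbo+COM33 comparison. The part of these markers in the members' differences was not tested.

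Receptors had the larger summed level in the family, and most of it came from TNFRSF12A and TNFRSF10B. In control libraries 11 of 23 receptors and 6 of 14 ligands averaged over 1 FPKM, and the summed averages were 393 FPKM for the receptors and 128 FPKM for the ligands. TNFRSF12A, the receptor of the cytokine TWEAK (TNFSF12), was highest at 190 ± 7.42 FPKM (SD, n = 3). It was followed by TNFRSF10B, a death receptor for TRAIL, at 94.3 ± 10.3 FPKM. CD70, the ligand of the lymphocyte receptor CD27, came next at 78.5 ± 11.1 FPKM, a level whose spread touches that of TNFRSF10B. TNFSF9, ligand of the costimulatory receptor TNFRSF9, stood at 31.6 ± 2.95 FPKM. TNFRSF1A, the main TNF receptor of most tissues, stood at 23.7 ± 2.21 FPKM and TNFRSF21, a death-domain receptor also called DR6, at 20.2 ± 4.46 FPKM; these 2 levels do not differ beyond their spread. TNFRSF9 (13.4 ± 1.48 FPKM), TNF (11.1 ± 1.53 FPKM), TNFRSF25 (10.5 ± 1.22 FPKM), TNFRSF10A (9.54 ± 0.828 FPKM), TNFRSF10D (9.12 ± 3.25 FPKM), CD40 (9.08 ± 1.51 FPKM) and LTBR (9.05 ± 0.320 FPKM) formed a group in which the SD ranges of neighbours overlapped. The single control libraries of TNFRSF9 (12.5 to 15.1 FPKM) and TNF (9.35 to 12.1 FPKM) did not overlap. TNFRSF11A, the receptor RANK, was at 2.12 ± 0.0842 FPKM. The remaining tested members, LTB, TNFSF13, TNFSF10, LTA, TNFSF12, TNFRSF13C, TNFRSF14, TNFRSF10C, TNFSF14, TNFSF15 and TNFSF4, lay between 0.225 and 1.56 FPKM.

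**Figure D1:**
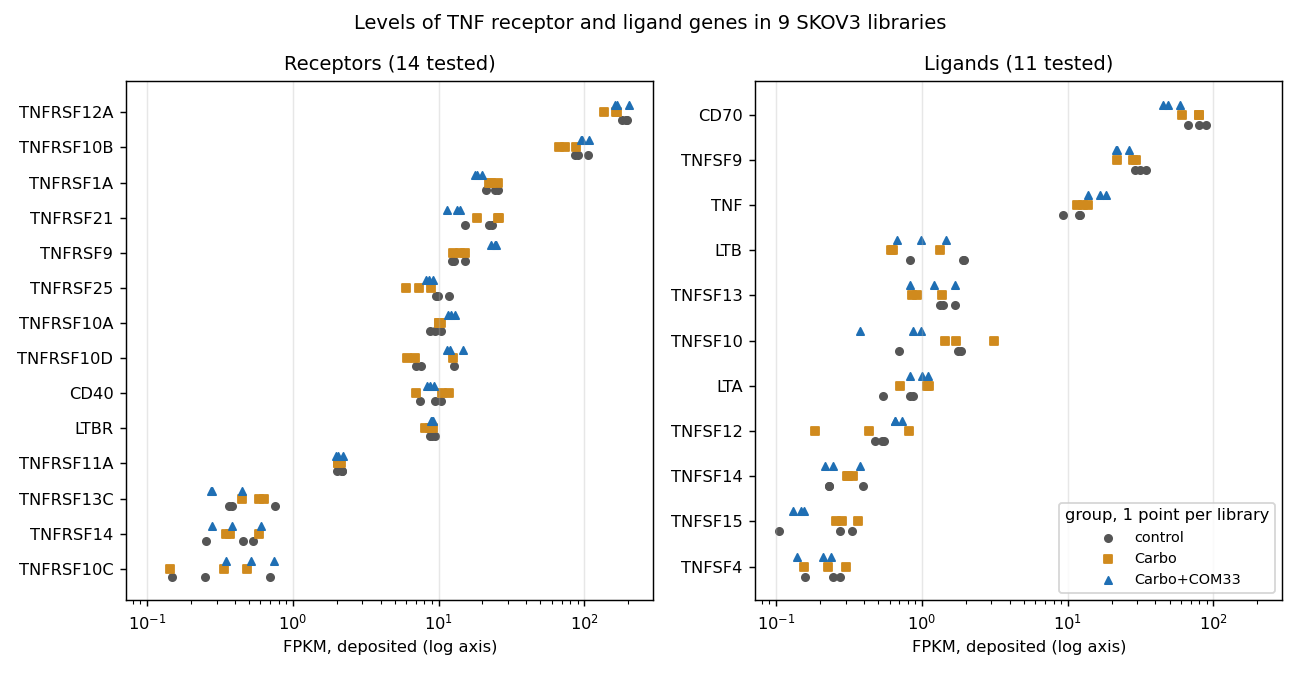
Deposited FPKM (log axis) of the 14 tested receptors and 11 tested ligands, with 1 point per library and a marker per group. TNFRSF12A and TNFRSF10B lie highest among the receptors and CD70 among the ligands, and TNFRSF9 in Carbo+COM33 lies to the right of its other libraries.

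The other 12 members were below the filter and were not tested. TNFRSF1B, the second TNF receptor, had 39 counts in the 9 libraries together, TNFRSF19 had 53, TNFRSF8 and TNFSF13B had 38 each, TNFRSF4 had 35 and TNFSF8 had 34. TNFRSF11B, the soluble decoy osteoprotegerin, had 23, TNFRSF18 had 21, CD27 had 19, TNFRSF17 had 16, TNFSF18 had 11 and TNFRSF13B had 2. FASLG, TNFSF11 and TNFRSF6B are not among the rows analysed here.

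Ligands and their partners were often at unequal levels. TWEAK, the ligand of the most abundant receptor, was at 0.521 ± 0.0384 FPKM in control. Its gene TNFSF12 shares 29.4% of its exon bases with TNFSF12-TNFSF13, a gene on the same strand that is not among the rows analysed. TNFSF13 shares 55.5%, so both levels are uncertain. CD70 stood at 78.5 FPKM against 0.128 FPKM for its receptor CD27, of whose exon bases 37.0% overlap CD27-AS1 on the opposite strand. TNF at 11.1 FPKM stood beside TNFRSF1A at 23.7 FPKM and TNFRSF1B at 0.0488 FPKM. TNFSF9 and TNFRSF9 were both present, at 31.6 and 13.4 FPKM in control. In Carbo+COM33 the ligand averaged 23.2 ± 2.79 FPKM and the receptor 24.1 ± 0.988 FPKM, which do not differ beyond their spread.

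The first comparison, Carbo+COM33 vs Carbo, concerns the addition of COM33 to the drug. TNFRSF9 and TNFRSF10B rose, and TNFRSF21 and CD70 fell. These 4 of the 25 tested members (16%) compare with 816 of all 16450 genes, a background of 4.96% (2.43% higher, 2.53% lower). At an unadjusted p under 0.05 there were 10 members beside 22.4% of all genes, and DESeq2 called 6 members beside 8.24%. The median log2 fold change was 0.04 over the tested members and -0.01 over all genes. The groups did not overlap for 10 of the 25 members, 5 higher and 5 lower in Carbo+COM33, beside 23.7% of all genes (11.7% higher, 11.9% lower). In these bulk libraries fewer cells of a type and less RNA per cell cannot be told apart.

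TNFRSF9, also called CD137, is a costimulatory receptor that signals through TRAF1 and TRAF2 (chromosome 1, 7915894 to 7943165, minus strand, GRCh38). Its control libraries held 96.2, 79.5 and 78.4 CPM, its Carbo libraries 95.2, 78.5 and 88.5 CPM, and its Carbo+COM33 libraries 158, 159 and 147 CPM. Each Carbo+COM33 value lay above all 6 others, and control and Carbo overlapped. TNFRSF9 rose by a log2 fold change of 0.82 against Carbo (SE 0.0995, adjusted p = 0.00164, edgeR) and of 0.87 against control (SE 0.0996, adjusted p = 0.00155). It was called in both comparisons with any 1 of the 9 libraries left out (adjusted p up to 0.0175 and 0.0156) and under each other alternative run. PTPRC and CD3E, which mark the white blood cells that use this receptor, were near 0 in these libraries, as given above. Only 1 blood and immune marker was tested, with log2 fold changes of -1.51 against Carbo and -1.45 against control. Both had an unadjusted p under 0.05, but edgeR and DESeq2 called neither. Of the 8 epithelial markers, edgeR called ERBB2 and KRT7 lower in Carbo+COM33 than in Carbo (log2 fold changes -0.57 and -1.21, adjusted p = 0.00508 and 0.00893). The other 6 were not called (median of the 8 -0.16), beside 4.96% of all genes called. KRT7 was not called without Carbo 2 or Carbo+COM33 1 (adjusted p up to 0.0610, edgeR), and DESeq2 also called PAX8. The part of these markers in the members' differences was not tested.

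Stretches before the RefSeq start of 3 members are shown because these genes moved in opposite directions in Carbo+COM33 against control, TNFRSF9 and TNF upward and TNFRSF21 downward. Each is the 250 bases before the start site in RefSeq on GRCh38.p14, 5′ to 3′ on the gene's strand, in lower case. Capitals mark matches to the kappa-B motif bound by NF-kB, to the AP-1 motif TGACTCA and to the TATA box TATAAA, each searched on both strands. The windows are chr1:7940840-7941089 (minus strand) for TNFRSF9, chr6:31575315-31575564 (plus strand) for TNF and chr6:47309906-47310155 (minus strand) for TNFRSF21. The RefSeq start of TNFRSF9 lies inside the GENCODE bounds given above, so its window is within that gene.
TNFRSF9: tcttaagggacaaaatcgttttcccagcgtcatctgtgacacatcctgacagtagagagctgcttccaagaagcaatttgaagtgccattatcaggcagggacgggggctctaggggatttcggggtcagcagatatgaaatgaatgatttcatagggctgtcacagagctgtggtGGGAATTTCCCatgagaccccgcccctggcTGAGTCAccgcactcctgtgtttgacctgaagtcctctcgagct
TNF: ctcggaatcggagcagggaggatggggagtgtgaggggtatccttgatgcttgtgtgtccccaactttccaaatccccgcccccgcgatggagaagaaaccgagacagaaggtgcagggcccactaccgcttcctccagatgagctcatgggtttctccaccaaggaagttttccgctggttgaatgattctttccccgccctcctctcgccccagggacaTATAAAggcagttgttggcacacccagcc
TNFRSF21: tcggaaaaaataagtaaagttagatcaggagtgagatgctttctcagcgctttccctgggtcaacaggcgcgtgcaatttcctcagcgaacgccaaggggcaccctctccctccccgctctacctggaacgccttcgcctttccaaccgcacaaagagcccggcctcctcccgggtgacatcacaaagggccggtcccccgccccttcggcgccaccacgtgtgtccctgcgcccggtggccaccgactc
The TNFRSF9 stretch holds 2 overlapping kappa-B matches and an AP-1 match downstream of them. TNF has a TATA box and TNFRSF21 has none of the 3 motifs in this window. The GC box GGGCGG, also searched but not marked, stands in each of the 3 stretches. Over windows of 300 bases (250 before the start and 50 from it), 24 of the 37 members matched an entry. A kappa-B match stood in 5 of these (LTB, TNFRSF14, TNFRSF25, TNFRSF9 and TNFSF14; 20.8%) and in 5.72% of all 27305 promoters. An AP-1 match stood in 4 of the 24 (16.7%) and in 4.92% of all promoters. Both motifs together stood in TNFRSF9 and TNFSF14 and in 0.264% of all promoters; TNFSF14 had a log2 fold change of -0.16 against Carbo (SE 0.326, adjusted p = 0.814, edgeR). A GC box stood in 13 of the 24 (54.2%) and in 44.6% of all promoters. A match is a description of the letters, not evidence of binding.

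TNFRSF21 (chromosome 6, 47231532 to 47309905) held 54.6, 79.3 and 83.3 CPM in control, 66.1, 93.0 and 92.0 CPM in Carbo and 42.1, 50.7 and 48.3 CPM in Carbo+COM33. All 3 Carbo+COM33 values lay below the 6 others, and replicate 1 was the lowest library of each group. The log2 fold change was -0.83 against Carbo (SE 0.163, adjusted p = 0.0132, edgeR) and -0.62 against control (SE 0.163, adjusted p = 0.0418). Against Carbo the call was lost without Carbo 2, Carbo 3 or Carbo+COM33 1 (adjusted p = 0.0848, 0.0546 and 0.0763).

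CD70 (chromosome 19, 6583183 to 6604103) held 103, 135 and 121 CPM in control, 93.3, 121 and 122 CPM in Carbo and 70.5, 75.9 and 91.2 CPM in Carbo+COM33. The Carbo+COM33 libraries were again below all others, with the highest of them close to Carbo 1. CD70 fell against Carbo by a log2 fold change of -0.50 (SE 0.132, adjusted p = 0.0480, edgeR) and against control by -0.60 (SE 0.132, adjusted p = 0.0229). Against Carbo it was not called without control 2, control 3, Carbo 2, Carbo 3, Carbo+COM33 1 or Carbo+COM33 2 (adjusted p = 0.0616, 0.0678, 0.205, 0.168, 0.184 and 0.154). Its neighbours on chromosome 19 are the ligand genes TNFSF9, 47.3 kb away, and TNFSF14, 57.2 kb away; their log2 fold changes against Carbo were -0.16 (adjusted p = 0.504) and -0.16 (adjusted p = 0.814).

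**Figure D2:**
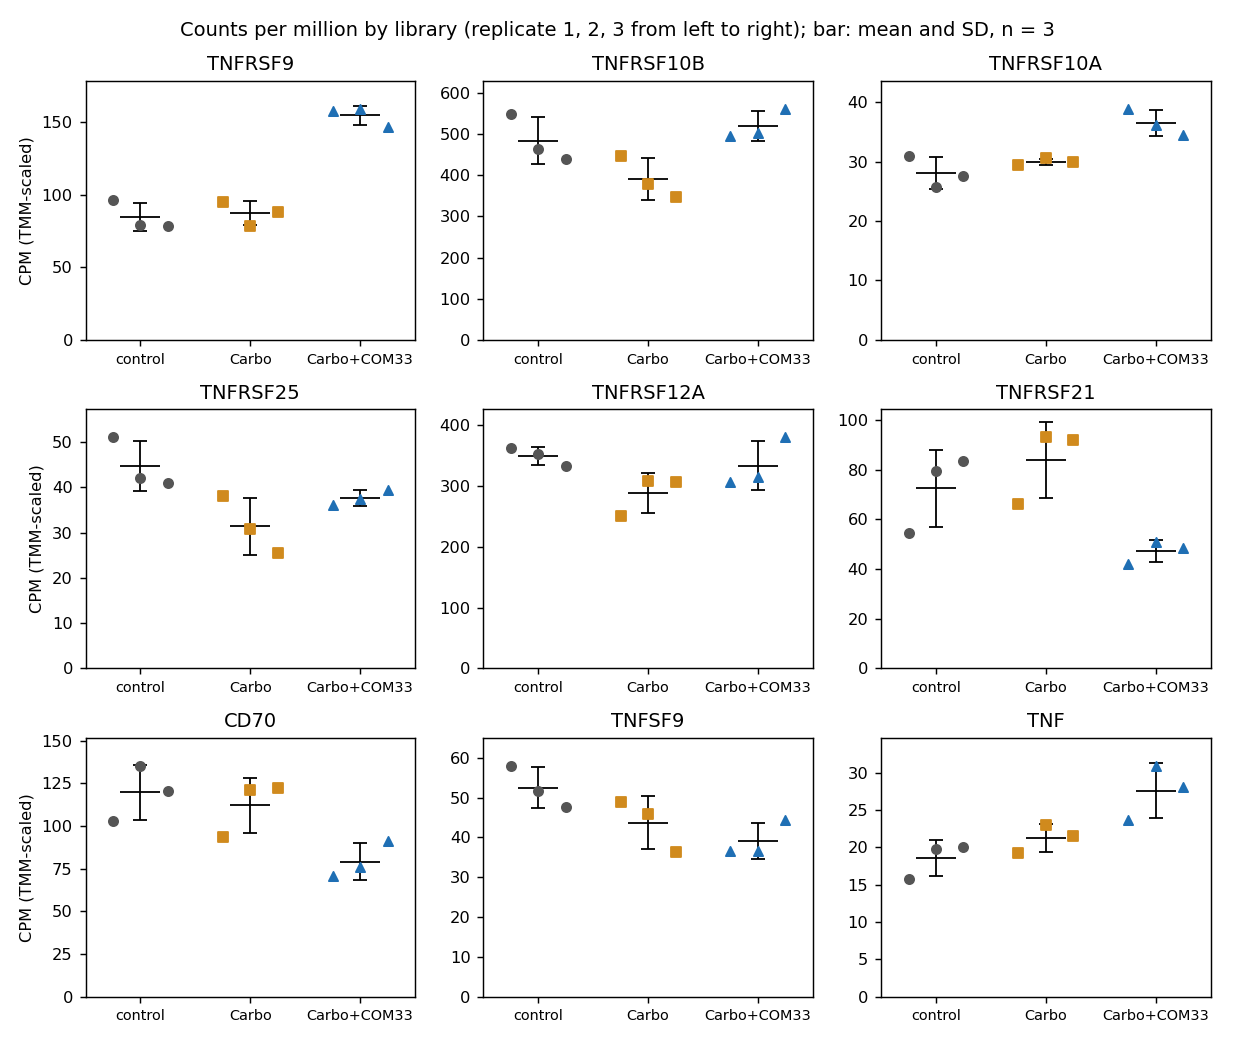
CPM by library for 9 members that passed the test in at least 1 comparison, paired or unpaired; points are replicates 1 to 3 from left to right and bars the mean and SD (n = 3). TNFRSF9 in Carbo+COM33 (147 to 159 CPM) lies above all other libraries, and TNFRSF21 and CD70 there lie below all others.

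The receptors of TRAIL, the ligand encoded by TNFSF10, are 4 neighbouring genes on chromosome 8 between 23020133 and 23225126. TNFRSF10B and TNFRSF10A carry death domains, and TNFRSF10C and TNFRSF10D are decoys without a working one. TNFRSF10B held 548, 465 and 441 CPM in control, 446, 378 and 347 CPM in Carbo and 496, 503 and 562 CPM in Carbo+COM33. Control and Carbo overlapped by the pair control 3 and Carbo 1, whereas all Carbo+COM33 libraries exceeded all Carbo libraries. TNFRSF10B rose against Carbo by a log2 fold change of 0.41 (SE 0.109, adjusted p = 0.0480, edgeR) and stood at 0.10 against control (SE 0.109, adjusted p = 0.611). The rise against Carbo remained called without control 1 or Carbo 1, and was not called without control 2, control 3, Carbo 2 or Carbo 3 (adjusted p = 0.0775, 0.0578, 0.200 and 0.182) or without any single Carbo+COM33 library (adjusted p = 0.111, 0.117 and 0.118).

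TNFRSF10A held 30.9, 25.7 and 27.6 CPM in control, 29.5, 30.6 and 29.8 CPM in Carbo and 38.9, 36.1 and 34.5 CPM in Carbo+COM33. Its Carbo+COM33 libraries were above all others. The log2 fold change was 0.28 against Carbo (SE 0.0977, adjusted p = 0.1105, edgeR) and 0.38 against control (SE 0.0981, adjusted p = 0.0407), the latter called. The decoy TNFRSF10D held 45.7, 26.4 and 24.6 CPM in control, 44.2, 24.0 and 21.5 CPM in Carbo and 52.9, 43.2 and 40.8 CPM in Carbo+COM33. Replicate 1 of control and of Carbo thus stood at the level of the Carbo+COM33 libraries, and the difference of 0.61 on the log2 scale against Carbo was not called (SE 0.265, adjusted p = 0.197). TNFRSF10C, with 100 counts in total, had a log2 fold change of 0.75 against Carbo (SE 0.564, adjusted p = 0.471). TNFRSF10A overlaps antisense transcripts over part of its exons, and whether reads were counted by strand is not known, so its value is uncertain.

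TNFRSF10B made up most of the summed TRAIL receptor level in FPKM, from 77.2% to 84.6% over the 9 libraries. The 2 decoys together held 10.4%, 7.23% and 6.96% in control, 11.6%, 7.98% and 7.68% in Carbo and 12.3%, 10.6% and 9.08% in Carbo+COM33. The ranges of the 3 groups overlapped, with replicate 1 the highest in each. Between same-numbered control and Carbo libraries the decoy share was higher in Carbo in 3 of 3 pairs. The TNFRSF10B share was lower in 3 of 3, at 81.5%, 84.6% and 83.9% in control and 79.3%, 80.6% and 80.3% in Carbo. Neither share was tested. The decoy TNFRSF10D itself was lower in Carbo in each pair (12.9, 7.53 and 6.99 FPKM in control, 12.6, 6.86 and 6.08 FPKM in Carbo). TNFRSF10C, under 1 FPKM, was higher in 2 of 3 pairs. TNFRSF10B stood at 106, 91.0 and 86.0 FPKM in control and 87.0, 74.1 and 67.1 FPKM in Carbo. TRAIL itself was low, with 18 to 156 counts per library: 2.43, 6.06 and 6.36 CPM in control, 4.98, 5.86 and 10.9 CPM in Carbo and 1.33, 3.49 and 3.05 CPM in Carbo+COM33. The Carbo+COM33 libraries lay below the Carbo libraries, and control 1 lay among them. The log2 fold change of -1.45 against Carbo was not called (SE 0.411, adjusted p = 0.0615, edgeR; called by DESeq2).

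**Figure D3:**
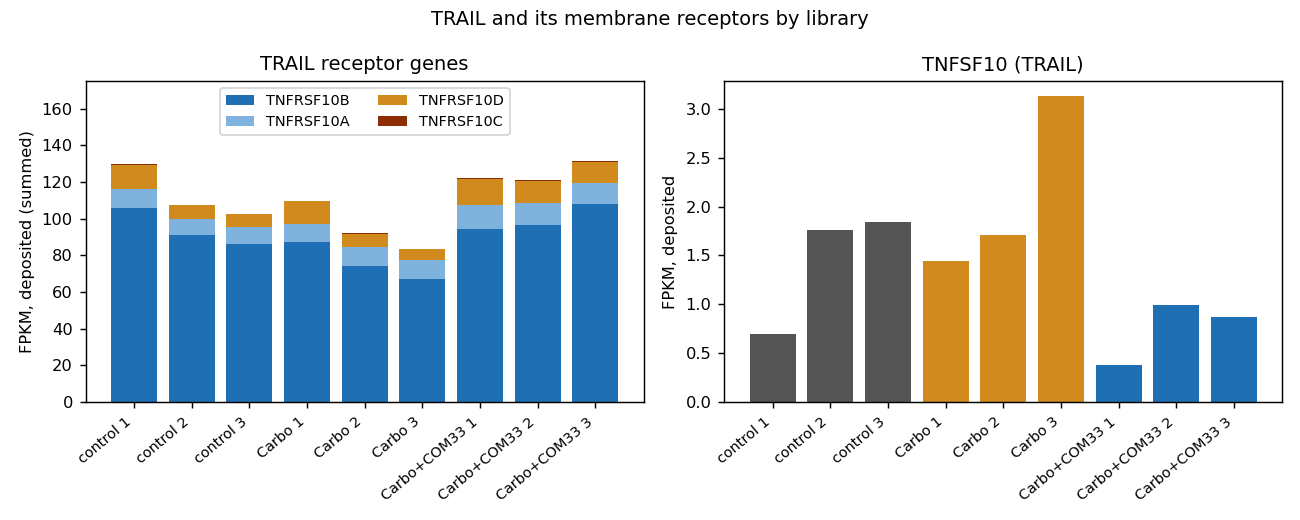
Deposited FPKM by library, stacked over the 4 TRAIL receptor genes (left) and for TNFSF10 (right). TNFRSF10B is 77.2% to 84.6% of each stack, and TNFSF10 is lower in every Carbo+COM33 library than in every Carbo library.

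Among the receptors and ligands of TNF itself, TNFRSF1A, a death-domain receptor, held 85.5, 101 and 96.6 CPM in control, 88.1, 101 and 92.5 CPM in Carbo and 72.1, 74.0 and 80.1 CPM in Carbo+COM33. The Carbo+COM33 libraries lay below the 6 others, but edgeR called neither difference, while DESeq2 called both (edgeR: log2 fold change -0.32, SE 0.0900, adjusted p = 0.0630 against Carbo; -0.33, SE 0.0900, adjusted p = 0.0505 against control). TNF (chromosome 6, 31575567 to 31578336) held 15.7, 19.8 and 20.1 CPM in control, 19.3, 23.0 and 21.5 CPM in Carbo and 23.7, 30.9 and 28.1 CPM in Carbo+COM33. The groups Carbo and Carbo+COM33 did not overlap. The log2 fold change was 0.38 against Carbo (SE 0.132, adjusted p = 0.117, edgeR) and 0.57 against control (SE 0.133, adjusted p = 0.0273). LTA and LTB, the lymphotoxin genes on either side of TNF at 1.24 kb and 2.19 kb, had log2 fold changes against control of 0.41 (adjusted p = 0.451) and -0.57 (adjusted p = 0.430).

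The second comparison, Carbo+COM33 vs control, concerns the combination. TNFRSF9, TNFRSF10A and TNF rose, and CD70 and TNFRSF21 fell, 5 of 25 tested members (20%) beside a background of 6.29% (3.2% higher, 3.09% lower). DESeq2 called 7 members beside 9.5% of all genes, 7 had an unadjusted p under 0.05 beside 24.0%, and the groups did not overlap for 9 members beside 28.7%. This comparison shares its Carbo+COM33 libraries with the one above, so the same values enter both. Apart from TNFRSF9, each of these calls was lost in some runs with 1 library left out, though each kept its direction. In those runs log2 fold changes ran from 0.32 to 0.46 for TNFRSF10A and from 0.48 to 0.67 for TNF. They ran from -0.71 to -0.50 for CD70 and from -0.78 to -0.51 for TNFRSF21. Calls over all genes fell from 1035 to 114, 203, 153 and 177 without control 2, control 3, Carbo+COM33 1 and Carbo+COM33 2. Without control 2 or without control 3, TNFRSF10A (adjusted p = 0.198 and 0.131), TNF (0.0960 and 0.0701), CD70 (0.127 and 0.0810) and TNFRSF21 (0.187 and 0.151) were not called. Without Carbo+COM33 2 they were not called either (adjusted p = 0.130, 0.134, 0.106 and 0.111). Without Carbo+COM33 1, TNFRSF10A (adjusted p = 0.182), CD70 (0.126) and TNFRSF21 (0.194) were not called. TNF was not called without control 1 (0.0590), TNFRSF10A and TNFRSF21 without Carbo 2 (0.0662 and 0.0595), and TNFRSF21 without Carbo+COM33 3 (0.0539). With the GC and length trends removed, CD70 and TNFRSF21 were not called (0.0770 and 0.0557). The median log2 fold change was -0.02 over the tested members and -0.01 over all genes. TNFSF9 was lower in every Carbo+COM33 library (36.6, 36.5 and 44.5 CPM) than in every control library (58.0, 51.8 and 47.7 CPM) but was not called (log2 fold change -0.42, SE 0.127, adjusted p = 0.0664, edgeR). It was called by DESeq2 (adjusted p = 0.0378), without the filter (0.00982), and without Carbo 1, Carbo 3 or Carbo+COM33 3 (0.0325, 0.0370 and 0.0283).

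**Figure D4:**
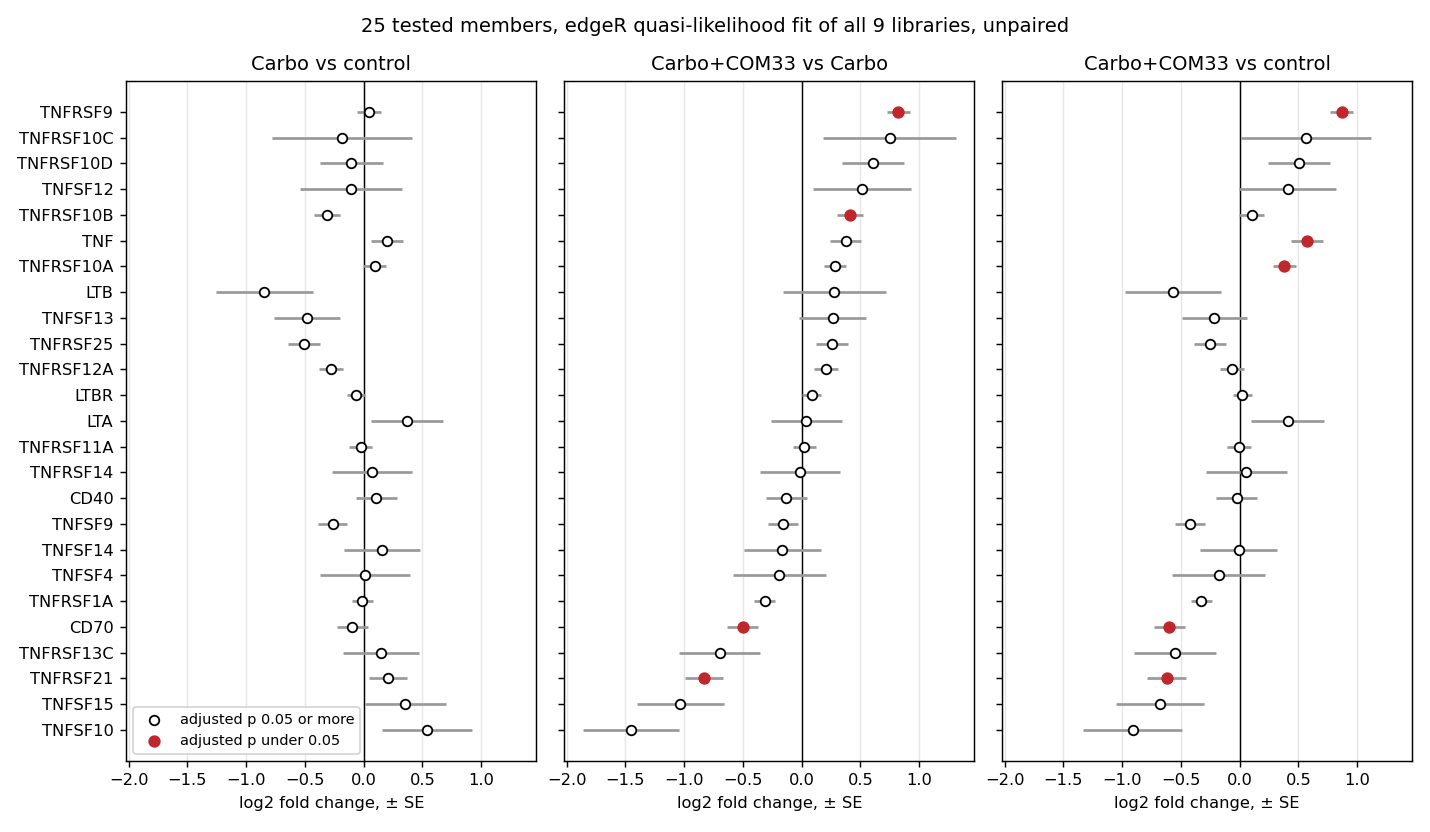
Log2 fold changes with SE of the 25 tested members in the 3 comparisons of the unpaired fit, in the order of Carbo+COM33 vs Carbo; filled points have an adjusted p under 0.05. No member is filled in Carbo vs control, 4 are in Carbo+COM33 vs Carbo and 5 in Carbo+COM33 vs control.

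The third comparison, Carbo vs control, concerns the drug by itself. In the unpaired edgeR test 0 members were called, beside 0 of all genes (background 0.0%); at an unadjusted p under 0.05 there were 3 members and 2748 genes (16.7%), and DESeq2 called 0 members and 132 genes (0.802%). The groups did not overlap for 2 members, beside 22.5% of all genes. Same-numbered control and Carbo libraries deviated together from their group means, so these 6 libraries were also fitted with replicate number as a blocking term. With this pairing, TNFRSF10B, TNFRSF25, TNFRSF12A and TNFSF9 fell and TNFRSF21 rose. These 5 of 25 members (20%) compare with 3739 of all genes, a background of 22.7% (11.2% higher, 11.5% lower), so the members' share was no larger than that of genes in general. Each of the 5 moved the same way in 3 of 3 pairs. They were picked by the fit of these same pairs, so this adds no support.

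TNFRSF10B fell in the paired fit by a log2 fold change of -0.32 (SE 0.0432, adjusted p = 9.60e-05, edgeR). Its rise in Carbo+COM33 vs Carbo uses the same Carbo libraries, so the 2 values are not independent. TNFRSF25, a death-domain receptor of the ligand TL1A (TNFSF15), held 51.1, 42.2 and 41.0 CPM in control, 38.0, 30.9 and 25.5 CPM in Carbo and 36.0, 37.4 and 39.5 CPM in Carbo+COM33. All its Carbo libraries were below all its control libraries. It fell in the paired fit by a log2 fold change of -0.52 (SE 0.0763, adjusted p = 1.74e-04). Both genes were called without any 1 pair, in fits with 1 residual degree of freedom. With the block over all 9 libraries neither was called (adjusted p = 0.199 for each, edgeR). Unpaired DESeq2 called neither as well (adjusted p = 0.152 and 0.0582). In the paired fit both were still called once GC and length trends had been removed (log2 fold changes -0.29 and -0.35). That correction left 4 members called, beside 10.5% of all genes (5.72% higher, 4.82% lower). TNFRSF25 shares short exon stretches with ESPN and PLEKHG5, so a part of its counts is uncertain.

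TNFRSF12A held 363, 352 and 333 CPM in control, 251, 308 and 306 CPM in Carbo and 306, 314 and 380 CPM in Carbo+COM33. Carbo lay below control in every pair (paired log2 fold change -0.28, SE 0.0604, adjusted p = 0.00291, edgeR). TNFRSF12A has a GC content of 64.2%, and after removal of the GC and length trends its paired log2 fold change was 0.004 (adjusted p = 0.984). TNFSF9, with 57.1% GC, fell in the paired fit by -0.27 on the log2 scale (SE 0.0685, adjusted p = 0.00909) and stood at -0.10 after the removal (adjusted p = 0.426); it was not called without pair 3 (adjusted p = 0.0601). TNFRSF21 rose in the paired fit by 0.21 (SE 0.0565, adjusted p = 0.0119) and by 0.26 after the removal (adjusted p = 0.00363), and was not called without pair 2 (adjusted p = 0.130). TNF, not called in the paired fit (0.20, adjusted p = 0.142), was called in it after the removal (0.33, adjusted p = 0.0245).

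The genes that act with and below these receptors were followed in lists by role. Of 19 adaptors and ubiquitin enzymes that bind the receptors, edgeR called 1 higher and 0 lower in Carbo+COM33 vs Carbo, beside 4.96% of all genes, with a median log2 fold change of 0.09. There were 5 at an unadjusted p under 0.05, beside 22.4% of all genes, and DESeq2 called TRAF1 and RBCK1, beside 8.24%. The gene called by edgeR was TRAF1, an adaptor that binds TNFRSF9 and is itself induced by NF-kB; it stood at 28.4 ± 4.43 CPM in control, 24.2 ± 1.74 CPM in Carbo and 56.8 ± 7.14 CPM in Carbo+COM33 (SD, n = 3). Its difference from Carbo was 1.23 on the log2 scale (SE 0.130, adjusted p = 5.02e-04, edgeR). It was called under each of the 15 alternatives run for this comparison. Against control TRAF1, BIRC3 and CYLD rose and TRAF4 fell; these 4 of 19, beside 6.29% of all genes, were named after their values were seen. BIRC3, a ubiquitin ligase of the receptor complexes, stood at 44.3 ± 6.74 CPM in Carbo+COM33 and 24.7 ± 1.96 CPM in control (log2 fold change 0.84, adjusted p = 0.0153; up to 0.0863 with control 2, Carbo+COM33 1 or Carbo+COM33 2 left out). CYLD was lost without the same 3 libraries (adjusted p up to 0.0765). TRAF4 was lost without control 2, control 3, Carbo 2, Carbo+COM33 1 or Carbo+COM33 2 and with the GC and length trends removed (up to 0.206).

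Of 17 genes of the NF-kB cascade itself, 0 were called in Carbo+COM33 vs Carbo or against control by edgeR (median 0.04 and 0.02). At an unadjusted p under 0.05 there were 3 and 2, beside 22.4% and 24.0% of all genes. DESeq2 called NFKBIA, an NF-kB inhibitor, in the first and 0 in the second, beside 8.24% and 9.5%.

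Known NF-kB target genes moved in both directions. Of 21 tested, 3 rose and 5 fell in Carbo+COM33 vs Carbo by edgeR, beside 2.43% higher and 2.53% lower of all genes, with a median of 0.04. There were 15 at an unadjusted p under 0.05, beside 22.4% of all genes, and DESeq2 called 11, beside 8.24%. CSF2, a colony-stimulating factor, stood at 3.36 ± 0.363 CPM in Carbo and rose to 10.8 ± 1.01 CPM (a log2 difference of 1.68 with an SE of 0.232, adjusted p = 0.00297, edgeR). TNFAIP3, the deubiquitinase A20 that dampens TNF receptor signalling, stood at 143 ± 3.78 CPM and rose to 236 ± 12.0 CPM (a log2 difference of 0.72 with an SE of 0.0750, adjusted p = 5.02e-04). IRF1, an interferon-response factor, rose by 0.98 (adjusted p = 0.00756; 0.0602 without Carbo 2). IL6, an inflammatory cytokine, stood at 87.8 ± 21.0 CPM and fell to 27.5 ± 4.29 CPM (a log2 difference of -1.67 with an SE of 0.173, adjusted p = 5.02e-04). CCL20, a chemokine, fell by a log2 fold change of -1.47 (adjusted p = 0.0366; up to 0.151 with control 3, Carbo 2, Carbo 3 or any Carbo+COM33 library left out), and IL1B by -0.59 (adjusted p = 0.0380; up to 0.150 with control 2, control 3, Carbo 2, Carbo 3 or any Carbo+COM33 library left out). CSF2, TNFAIP3 and IL6 were called under each of the 15 alternatives. Against control 4 of the 21 targets rose and 3 fell by edgeR, beside 3.2% higher and 3.09% lower of all genes (median 0.05). There 11 had an unadjusted p under 0.05, beside 24.0%, and DESeq2 called 8, beside 9.5%. CSF2, TNFAIP3 and IL6 were called under each of 15 alternatives there too, whereas IRF1 was lost with some single libraries left out (adjusted p up to 0.191, edgeR).

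Of the relatives outside the naming rule, FAS averaged 1.55, 2.16 and 2.01 FPKM in control, Carbo and Carbo+COM33, RELT 1.78, 1.20 and 1.00 FPKM and NGFR 0.280, 0.135 and 0.235 FPKM; 0 of these 3 were called by the unpaired edgeR test in any comparison, while DESeq2 called RELT in Carbo+COM33 vs control. The DESeq2 background against control was 9.5% of all genes. At an unadjusted p under 0.05 there were 2 of these relatives in Carbo vs control, 0 in Carbo+COM33 vs Carbo and 1 against control. The backgrounds there were 16.7%, 22.4% and 24.0% of all genes. Of 5 tested genes of ligand and receptor shedding, edgeR called 0 in Carbo+COM33 vs Carbo (median -0.16). There were 2 at an unadjusted p under 0.05, beside 22.4% of all genes, and DESeq2 called ADAM10, a shedding protease, beside 8.24%. In Carbo vs control the unpaired test called 0 genes of each of these 6 lists, by edgeR and by DESeq2, beside 0.0% and 0.802% of all genes. At an unadjusted p under 0.05 there were 6 of 19 adaptors, 3 of 14 death-signalling genes and 5 of 17 genes of the cascade. There were also 6 of 21 targets and 2 of 5 shedding genes, beside 16.7% of all genes. The paired fit called 6 of 19 adaptors higher and 5 lower, 2 and 2 of 14 death-signalling genes and 4 and 2 of 17 cascade genes. It called 7 and 4 of 21 NF-kB targets and 1 and 1 of 5 shedding genes, beside backgrounds of 11.2% higher and 11.5% lower. Of the 3 relatives it called only RELT, lower (log2 fold change -0.57, SE 0.169, adjusted p = 0.0221, edgeR). After removal of the GC and length trends RELT stood at -0.36 (adjusted p = 0.187). Among the adaptors, FADD, TRAF2, TRAF4 and TRAF6 then lost their paired calls (adjusted p = 0.283, 0.995, 0.592 and 0.0532), while RIPK1 kept its own (0.0389). Such values are not given here for the other list genes.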

How the data were processed

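The authors deposited a single table for 9 libraries of SKOV3 cells, holding raw gene counts and FPKM values. The tools listed in the submitters' processing notes are DESeq2 1.26.0, HTSeq 0.11.2 and HISAT2, and the build is GRCh38; settings, annotation and strand are not given in the sources used here. All 32378 identifiers and names matched GENCODE release 29, which gave coordinates, exon lengths and GC content. FPKM equalled the count per length and library total (largest difference 8.2e-12).

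Counts were filtered by filterByExpr in edgeR 4.0.16, leaving 16450 genes, and scaled by TMM (factors 0.982 to 1.01). A quasi-likelihood model with a coefficient per group was fitted to all 9 libraries (6 residual degrees of freedom, R 4.3.3). The SE is the log2 fold change divided by the square root of F. Members of the family were named by rule: those called in any comparison, those called with the block in Carbo vs control, and the 6 highest in control FPKM with full values; from each pathway list up to 6 genes called in Carbo+COM33 vs Carbo, by size. Members and lists were chosen with earlier results of these data known. The result for a list of death-signalling genes in the Carbo+COM33 comparisons is not reported here.

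Replicate numbers were taken to pair control and Carbo libraries: the correlation of their deviations from the group means, in 6607 genes averaging above 5 in log2 CPM, was 0.824, 0.565 and 0.748. Between differing numbers it was 0.402 for Carbo 2 with control 3 and 0.254 for Carbo 3 with control 2. The rest lay from -0.779 to -0.446, so numbers 2 and 3 were less clearly separated than number 1. The labels state no pairing, which was read from these same data. The block fit for Carbo vs control has 2 residual degrees of freedom. Promoter sequences are from RefSeq, GRCh38.p14. Figures used Python 3.11.15 and matplotlib 3.10.9. Alternatives tried were DESeq2 1.42.0, RLE scaling, no filter, the replicate block, spline offsets for GC content and length, both together, and leaving out each library.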

Additional observations from a re-analysis of the deposited data

How the results depend on the processing

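With the replicate block, Carbo vs control gave 3739 genes and 5 members, and with the block and the GC and length trends removed 1734 and 4. Of the settings added after the data were seen, leaving out pair 1, 2 or 3 under the replicate block gave 4338, 1623 and 2842 genes and 5, 6 and 4 members, each with 1 residual degree of freedom, and the block over all 9 libraries gave 0 genes and 0 members. Without the filter there were 928 genes and 2 members, DESeq2 gave 132 genes, and leaving out a library gave 0 to 1034 genes (the highest without Carbo 1) and 0 to 2 members. Carbo+COM33 vs Carbo gave 1876 genes and 7 members without the filter, 1356 genes with DESeq2, 1235 genes with the trends removed, 502 genes with the replicate block, 7 members with the block and the trends removed, and 120 to 2721 genes and 1 to 8 members with a library left out. Carbo+COM33 vs control gave 1934 genes and 9 members without the filter, 1563 genes with DESeq2, 3 members with the trends removed, 1700 genes with the block and the trends removed, and 114 to 2208 genes and 1 to 7 members with a library left out. In the last 2 comparisons same-numbered libraries did not deviate together (correlations from -0.42 to 0.138), so the block is only a setting there; with it TNFRSF10B against Carbo had an adjusted p of 0.103 (edgeR) and TNFRSF10A against control 0.0583. The cause of these differences was not tested.

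Of 441 alternative values of single members, 357 kept their direction and side of the threshold, 39 lost a call, 32 gained one and 13 changed sign. None of the 13 was called. In Carbo vs control they were CD70 (main -0.10) at 0.13 with the trends removed, 0.12 with the block and the trends removed, 0.0014 without control 2 and 0.020 without Carbo 1 (range with a library left out -0.19 to 0.020); TNFRSF12A at 0.017 and 0.0039 with the trends removed, without and with the block; and TNFRSF9 (main 0.05) at -0.037 and -0.036 in these, -0.013 under the block without pair 3, -0.0068 without control 3 and -0.021 without Carbo 1 (range -0.021 to 0.15). In Carbo+COM33 vs control TNFRSF12A (main -0.07) stood at 0.18 in both. With 3 libraries a group, members at a few CPM such as TNFSF10 and TNFRSF10C have an SE of 0.382 to 0.594, which limits what can be detected for them.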
